A study of Homo sapiens with 6 samples.

Results

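The genes described here are 9 genes of hematopoietic cytokine signalling, 8 receptor genes (KIT, FLT3, CSF1R, EPOR, IL3RA, CSF2RB, IL6ST and IL7R) and 1 ligand gene (KITLG), taken by symbol from a count table of 29436 genes. All 9 were found in it, and 8 had enough counts to be tested. They were measured in hemogenic endothelial cells, the endothelial cells that give rise to blood, grown from the human embryonic stem cell line H1 on AGM-S3 stroma. Both groups passed the same sort for CD34, KDR and CD144 without CD43 on day 8, and 1000 cells went into each library of amplified polyA cDNA. The untreated group had no added agent and the other had 100 µg/ml alpha lipoic acid (ALA), an antioxidant and enzyme cofactor, in the inducing medium, with 3 libraries each. The study is about the greater yield of blood progenitors after lipoic acid, and the comparison here asks which receptors for blood cytokines differed in transcript level at the hemogenic stage. All libraries come from 1 cell line, and nothing says whether replicates were separate cultures, so p-values measure only the spread between these libraries.

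Cytokine receptors let a cell answer the factors that keep blood progenitors alive and dividing. KIT, FLT3 and CSF1R are receptor tyrosine kinases of 1 family, and KITLG encodes stem cell factor, the ligand of KIT, which can act from the cell surface or in a soluble form. EPOR, IL3RA, CSF2RB, IL6ST and IL7R lack a kinase of their own and signal through JAK kinases and STAT factors. Some of them are shared chains: CSF2RB serves the receptors for interleukin 3, interleukin 5 and GM-CSF, and IL6ST (gp130) serves those of the interleukin 6 family.

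Total counts ran from 30041494 to 41351951 per library. Counts above 0 were nearly all even (at least 99.13%) in the lipoic acid libraries and untreated replicate 1, but 52.01% and 51.97% even in the other untreated libraries, and low counts are therefore also given with such counts halved. All 10 markers of hemogenic endothelium passed the filter on low counts. Of these, 4 were called higher, 4 lower and 2 not, where 47.4% of all tested genes were called (24.2% higher and 23.3% lower). Their summed level was 11290 to 11370 CPM in untreated and 9801 to 10100 CPM in lipoic acid libraries. Of the sort markers, KDR was called higher (4113 ± 229 and 4812 ± 133 CPM, SD, n = 3 each), whereas CD34 (1451 ± 40.98 and 813 ± 10.3 CPM) and CDH5, which encodes CD144 (864 ± 127 and 556 ± 18.2 CPM), were called lower. PECAM1 (2307 ± 36.1 and 1820 ± 3.33 CPM) and ESAM (1824 ± 72.4 and 1140 ± 44.2 CPM) were also called lower, and RUNX1, a factor of blood emergence, was called higher (2.63 ± 0.500 and 14.4 ± 0.531 CPM). The part of these differences in the results for the receptors was not tested. Levels are CPM, the count scaled to a common library total, on TMM-scaled library sizes. Genes called higher (rose) or lower (fell) had an adjusted p under 0.05 in edgeR's quasi-likelihood test with Benjamini-Hochberg adjustment over all 13780 tested genes.

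Of the 8 tested genes, KITLG and KIT rose, CSF2RB, IL7R and IL3RA fell, and EPOR, IL6ST and CSF1R were not called. That is 5 of 8 called, where 47.4% of all tested genes were called (24.2% higher and 23.3% lower). The groups did not overlap for the same 5 genes, where 59.1% of all tested genes did not overlap. With about as large a share of all genes called, the count alone says little about these 8, and the genes are described one by one. FLT3 did not pass the filter on low counts.

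The promoters of 3 genes that moved are shown first, KITLG and KIT because ligand and receptor rose together and IL7R as a gene that fell. Each is the 250 bases before the RefSeq start on GRCh38.p14, read on the strand of the gene, and capitals mark motif letters found on either strand.

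KITLG, chr12:88580472-88580721, minus strand: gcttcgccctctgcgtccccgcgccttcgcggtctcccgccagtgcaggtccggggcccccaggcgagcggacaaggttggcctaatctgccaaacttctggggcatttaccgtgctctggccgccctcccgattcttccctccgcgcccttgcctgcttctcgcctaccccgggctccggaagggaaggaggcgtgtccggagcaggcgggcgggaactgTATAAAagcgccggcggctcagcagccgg

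KIT, chr4:54657707-54657956, plus strand: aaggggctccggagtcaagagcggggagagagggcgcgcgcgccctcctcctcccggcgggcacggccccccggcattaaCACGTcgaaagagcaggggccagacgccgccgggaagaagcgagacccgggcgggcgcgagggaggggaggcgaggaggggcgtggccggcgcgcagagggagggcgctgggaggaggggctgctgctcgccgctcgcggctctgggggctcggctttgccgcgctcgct

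IL7R, chr5:35856641-35856890, plus strand: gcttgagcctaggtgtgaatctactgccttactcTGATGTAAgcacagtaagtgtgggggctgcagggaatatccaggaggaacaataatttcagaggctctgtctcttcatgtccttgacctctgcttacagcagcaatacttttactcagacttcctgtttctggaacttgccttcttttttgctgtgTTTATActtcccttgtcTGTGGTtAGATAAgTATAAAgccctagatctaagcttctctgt

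The 7 motifs were searched on both strands of 35093 promoter windows of the same length. The box TATAAA was present in 10.7% of them, and the core of the antioxidant response element, TGACNNNGC, in 10.9%. The composite element of C/EBP and ATF factors, TGATGNAA, was the rarest at 3.15%. Letters bound by RUNX factors, TGTGGT, were present in 11% of windows, and those bound by blood and endothelial zinc finger factors of the GATA family, AGATAA, in 9.17%. The core of the hypoxia response element, ACGTG, was present in 18.5%, and the E-box, CANNTG, which is not capitalised here, in 61.8%. KITLG held TATAAA from 29 to 24 bases before its start, and IL7R had it at the same distance and once more on the opposite strand. KIT held only ACGTG, on the opposite strand. IL7R also held TGATGNAA, TGTGGT and AGATAA, and no marked motif overlapped another in these 3 windows. TGACNNNGC and CANNTG were found in none of the 3. Windows of members not shown held some of the same letters. TATAAA was present in IL3RA, ACGTG in FLT3 and EPOR, AGATAA in EPOR and TGTGGT in CSF1R, of which only IL3RA was called. The RefSeq starts of the 3 genes shown lie inside their GENCODE spans given below. These matches are descriptions of letters, and any link to the direction of change was not tested. Promoters of 8 of the 9 genes were in the RefSeq table, all but CSF2RB.

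KITLG (ENSG00000049130.15, chromosome 12, 88492793 to 88580851, GRCh38) had 99.7, 95.2 and 108 CPM in untreated replicates 1 to 3 and 288, 337 and 312 CPM in lipoic acid replicates 1 to 3. Every lipoic acid library lay above every untreated one, with a wide gap between them. KITLG rose 3.09-fold (log2 fold change 1.63, SE 0.08, edgeR adjusted p = 3.37e-07), from 101 ± 6.74 to 312 ± 24.7 CPM (SD, n = 3 each). A larger fitted rise was seen in 5.47% of tested genes. An antisense gene covers 0.0129 of its exons, and whether counting used strand is not given in the sources used here. In bulk RNA, a change in the number of cells that express a gene and a change in transcript per cell cannot be told apart.

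KIT (ENSG00000157404.15, chromosome 4, 54657918 to 54740715), the receptor for stem cell factor and a marker of blood progenitors, had 37.0, 28.8 and 34.8 CPM without and 62.8, 67.1 and 68.5 CPM with lipoic acid. The groups were again fully apart. KIT rose 1.97-fold (log2 fold change 0.98, SE 0.09, edgeR adjusted p = 3.66e-05). Both KITLG and KIT were called higher under every other setting tried, including the 4 libraries of even counts alone (log2 fold changes 1.65 and 0.84), where untreated replicate 1 stands alone and its spread is taken to be that of the lipoic acid libraries.

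The fitted rise was larger for the ligand than for the receptor. The ratio of KITLG to KIT CPM was 2.70, 3.31 and 3.11 in untreated and 4.58, 5.02 and 4.56 in lipoic acid libraries, with no overlap. The mean ratio was 3.04 ± 0.311 against 4.72 ± 0.262 (SD, n = 3 each), a log2 difference of 0.64, and an exact two-sided permutation test gave p = 0.1, the smallest that 3 libraries against 3 can give. Per kilobase of exon, KITLG transcript exceeded KIT transcript 2.42- to 2.96-fold in untreated and 4.09- to 4.50-fold in lipoic acid libraries.

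**Figure D1:**
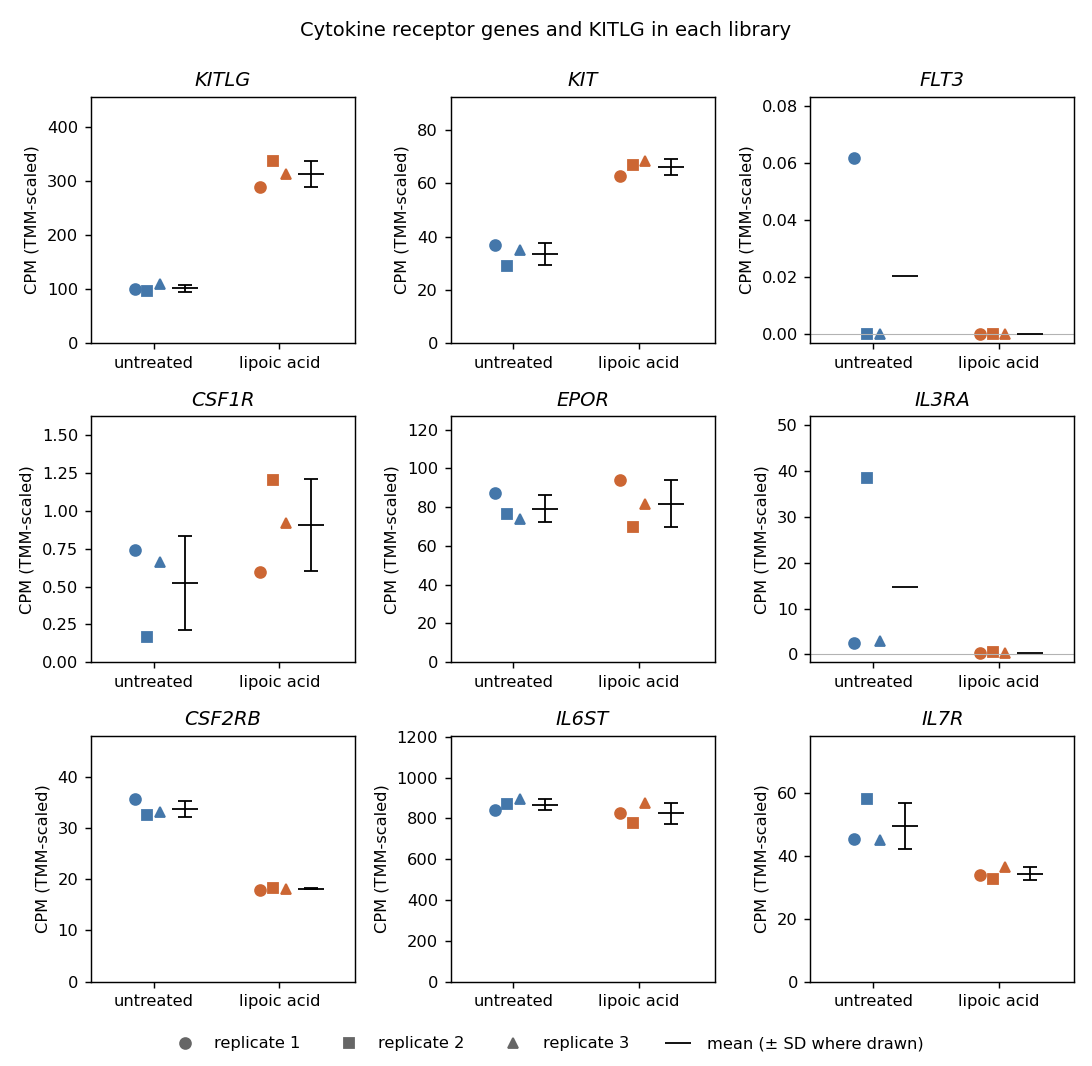
CPM of each gene (y axis, linear, a scale per panel) in the 3 untreated (blue) and 3 lipoic acid (orange) libraries, symbols giving the replicate number and black marks the group mean with SD (mean alone for FLT3 and IL3RA). KITLG and KIT sit higher in every lipoic acid library, CSF2RB and IL7R sit lower, and IL3RA has a single high value of 38.5 CPM in untreated replicate 2.

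The other 2 tyrosine kinase receptors of the family were at the edge of detection. FLT3 (chromosome 13, 28003274 to 28100592), the receptor of early lymphoid and myeloid progenitors, had 2 counts in untreated replicate 1 and none in the other libraries. Over a group, 3 counts correspond to 0.039 CPM without and 0.0532 CPM with lipoic acid with even counts halved, so both groups were at or under what could be seen. CSF1R (chromosome 5, 150053291 to 150113372), the macrophage colony-stimulating factor receptor, had 24, 5 and 20 counts in untreated and 24, 38 and 38 in lipoic acid libraries. These are 0.738, 0.166 and 0.665 against 0.598, 1.20 and 0.918 CPM, with overlapping groups and no call (log2 fold change 0.78, SE 0.58, edgeR adjusted p = 0.294). Its ligand gene CSF1 was far better covered, at 38.5 ± 2.95 and 38.2 ± 2.35 CPM, and was not called (log2 fold change -0.01, edgeR adjusted p = 0.936). The FLT3 ligand gene FLT3LG had 2 counts in all.

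EPOR (ENSG00000187266.13, chromosome 19, 11377205 to 11384342), the erythropoietin receptor that red cell precursors depend on, had 87.1, 76.3 and 74.0 CPM without and 93.9, 69.7 and 81.5 CPM with lipoic acid. The highest and the lowest value were both in the lipoic acid group. EPOR was not called (log2 fold change 0.05, SE 0.11, edgeR adjusted p = 0.748). JAK2, the kinase that EPOR uses, rose 1.21-fold from 23.7 ± 1.66 to 28.5 ± 0.675 CPM (edgeR adjusted p = 0.0253), a call lost without untreated replicate 1 (0.0539), without lipoic acid replicate 1, 2 or 3 (0.0501, 0.0561 and 0.0836) and after correction for GC content and length (0.175).

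CSF2RB (ENSG00000100368.13, chromosome 22, 36913628 to 36940449), the shared beta chain for interleukin 3, interleukin 5 and GM-CSF, had 35.5, 32.5 and 33.1 CPM without and 18.0, 18.3 and 18.2 CPM with lipoic acid. The lipoic acid libraries were almost identical, and all lay well under the lowest untreated one. CSF2RB fell 1.86-fold (log2 fold change -0.89, SE 0.08, edgeR adjusted p = 2.69e-05). Of its partner chains, IL3RA is described below. CSF2RA, the GM-CSF chain, had 15 counts over the untreated and 0 over the lipoic acid libraries. That is at least 2.69-fold lower against a floor of 3 counts over the group with even counts halved, and CSF2RA was not tested. IL5RA had 0 in all. The ligand genes IL3, CSF2 and IL5 had no count in any library.

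IL3RA (ENSG00000185291.11, chromosome X, 1336616 to 1382689), the specific chain of the interleukin 3 receptor (CD123), had 78, 1157 and 90 counts in untreated and 8, 14 and 16 in lipoic acid libraries. This is 2.40, 38.5 and 2.99 CPM against 0.199, 0.443 and 0.387 CPM, so the groups were apart, with untreated replicate 2 far above all other libraries. IL3RA fell by 5.42 on the log2 scale (SE 1.11, edgeR adjusted p = 0.00296), and without untreated replicate 2 it fell by 2.97 (adjusted p = 0.000208). It was not called with robust moderation of the spread (adjusted p = 0.0592), and DESeq2 gave it no p. IL3RA passed the low-count filter through the untreated group, with all 3 untreated and 2 lipoic acid libraries above 0.315 CPM.

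IL3RA lies in the pseudoautosomal region shared by chromosomes X and Y, for which GENCODE lists 2 identifiers under this symbol. The 2 copies cannot be told apart by reads, and how reads with several alignments were counted is not given in the sources used here. Some other genes of this region also varied widely between replicates, and others did not. The highest untreated library exceeded the lowest by 16.0-fold for IL3RA, 9.78-fold for DHRSX, 7.62-fold for GTPBP6 and 5.16-fold for CD99, where over tested genes the median was 1.22-fold and the 95th percentile 3.02-fold. In lipoic acid libraries CD99 spanned 16.7-fold, where the 95th percentile over tested genes was 2.47-fold. GTPBP6 had only 50, 8 and 61 counts in untreated replicates 1 to 3. PPP2R3B, PLCXD1 and ZBED1 of the same region spanned 1.3-, 1.54- and 1.73-fold in untreated and 1.41-, 1.27- and 1.15-fold in lipoic acid libraries. SLC25A6 and ASMTL spanned 2.24- and 1.51-fold in untreated and 3.56- and 4.98-fold in lipoic acid libraries. The part of this spread in the IL3RA result was not tested. CSF2RA and CRLF2 are in the region as well.

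**Figure D2:**
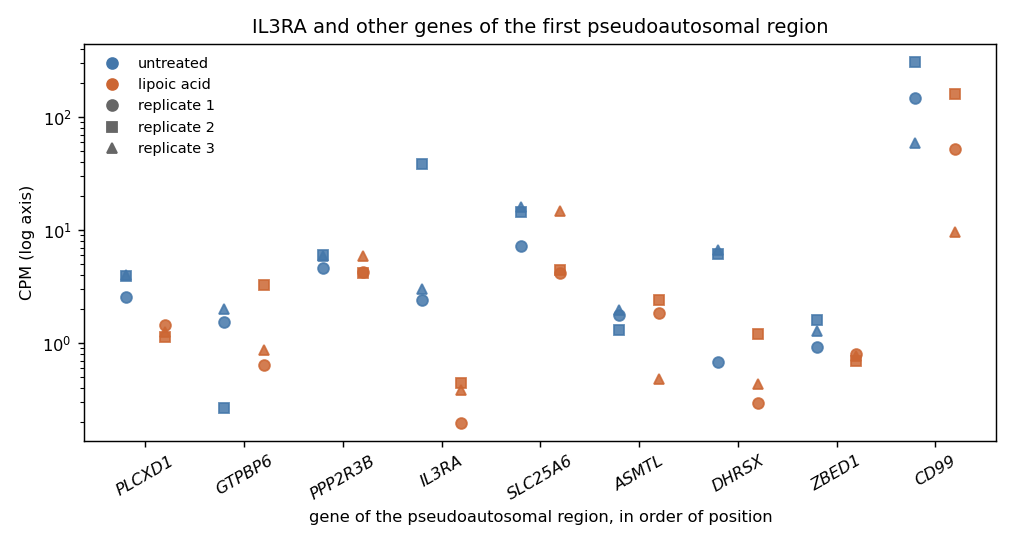
CPM (log y axis) of the 9 genes of the first pseudoautosomal region with at least 100 counts in all, in order of position on the x axis, by library (blue untreated, orange lipoic acid, symbols giving the replicate number). The untreated libraries of IL3RA span 16.0-fold and the lipoic acid libraries of CD99 span 16.7-fold.

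IL6ST (ENSG00000134352.19, chromosome 5, 55935095 to 55994993), the shared chain of the interleukin 6 family, had 839, 871 and 893 CPM without and 825, 775 and 877 CPM with lipoic acid. The groups overlapped and IL6ST was not called (log2 fold change -0.07, SE 0.06, edgeR adjusted p = 0.326). After each library was corrected for a trend with GC content and length, it was called lower, at a log2 fold change of -0.22 (adjusted p = 0.0113). An antisense gene covers 0.0858 of its exons.

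The ligand-specific partners of IL6ST moved in both directions. IL6R, the interleukin 6 chain, had 7.87, 6.12 and 7.28 CPM without and 14.9, 14.3 and 13.2 CPM with lipoic acid, and rose 1.99-fold (edgeR adjusted p = 0.000402). OSMR, the oncostatin M chain, rose 1.30-fold from 71.5 ± 3.79 to 92.7 ± 1.78 CPM (adjusted p = 0.00113). LIFR, the chain for leukemia inhibitory factor, fell 1.33-fold from 592 ± 35.4 to 446 ± 24.6 CPM (adjusted p = 0.000571), and IL27RA fell 1.63-fold from 29.1 ± 2.99 to 17.8 ± 1.12 CPM (adjusted p = 0.000425). These 4 genes were called the same way in all 19 other fits. Per kilobase of exon, mean LIFR was 49.9 CPM without and 37.6 CPM with lipoic acid, the highest of these partner chains in both groups, and mean IL6R was 1.10 and 2.19 CPM. Of the family's ligand genes, IL11 rose from 0.258 ± 0.0545 to 0.998 ± 0.198 CPM (3.82-fold, adjusted p = 0.00832), though not among the 4 libraries of even counts (0.0999). IL11 was above the filter cutoff of 0.315 CPM in lipoic acid libraries alone, so a rise was the only call it could get. IL6 was not called (0.782 ± 0.193 and 0.966 ± 0.504 CPM).

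IL7R (ENSG00000168685.14, chromosome 5, 35852695 to 35879603), the interleukin 7 receptor chain of lymphoid progenitors, had 45.2, 57.8 and 45.0 CPM without and 33.7, 32.7 and 36.5 CPM with lipoic acid. All lipoic acid libraries were under the lowest untreated one, with untreated replicate 2 the highest. IL7R fell 1.44-fold (log2 fold change -0.52, SE 0.10, edgeR adjusted p = 0.00256). IL2RG, the common chain with which IL7R forms the interleukin 7 receptor, had 0 counts in untreated libraries and 52 over the lipoic acid libraries. That level is at least 11.8-fold higher than 3 counts over the untreated group, even counts halved, but IL2RG was too low to be tested. CRLF2, the other chain that pairs with IL7R, for TSLP, had at most 0.246 CPM in any library. RAG1, a recombinase gene of lymphoid cells, rose from 3.25 ± 0.351 to 12.0 ± 1.04 CPM (adjusted p = 2.24e-05), while CD3E, RAG2 and LCK had no count.

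Per kilobase of exon the 9 genes spread over several orders of magnitude. In untreated libraries IL6ST was highest at 93.3 ± 2.90 CPM per kilobase, followed by EPOR (25.7 ± 2.28) and KITLG (16.3 ± 1.09), and these 3 did not overlap one another. IL7R (8.14 ± 1.21) lay above CSF2RB (6.74 ± 0.325), whereas CSF2RB and KIT (6.03 ± 0.762) overlapped. The untreated mean of IL3RA (8.55) rested on 1 library, and its range of 1.40 to 22.5 overlapped the neighbours in the order. CSF1R (0.102) and FLT3 (0.00493) were last. With lipoic acid the order changed: KITLG (50.3 ± 3.97) came second after IL6ST (88.9 ± 5.48) and ahead of EPOR (26.5 ± 3.94). KIT (11.9 ± 0.536) moved from below to above IL7R (5.66 ± 0.331) and CSF2RB (3.63 ± 0.0315), with no overlap between these neighbours. Among the last genes only IL3RA (0.201 ± 0.0746) and CSF1R (0.176 ± 0.0587) overlapped.

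**Figure D3:**
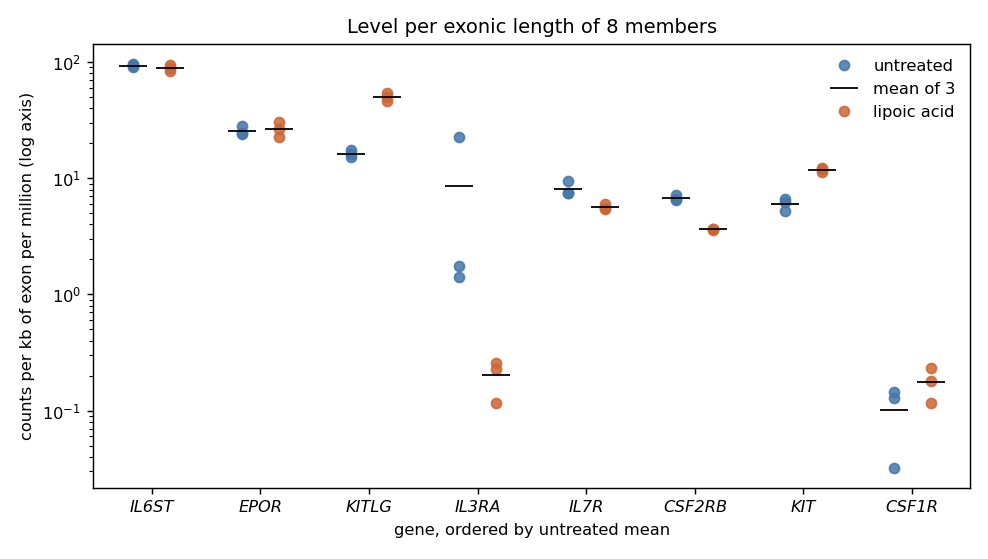
CPM per kilobase of exon (log y axis) of 8 genes in each library (points, blue untreated and orange lipoic acid) with the group mean as a black line, ordered by untreated mean. KITLG passes EPOR and KIT passes IL7R and CSF2RB with lipoic acid. FLT3, with 0 in 5 libraries, is not drawn.

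The genes around the members are described by counts, to be read against the 24.2% of all tested genes called higher and 23.3% called lower. Of 29 other cytokine receptor and PDGF receptor genes 17 were tested, of which 5 rose, 9 fell and 3 did not pass (median log2 fold change -0.24, against -0.01 over all tested genes). The calls of IL11RA, PDGFRB and LEPR (adjusted p = 0.0404, 0.0416 and 0.0225) were made in 12, 14 and 14 of 19 other fits. IL4R, the interleukin 4 chain, fell 1.45-fold from 126 ± 9.28 to 87.0 ± 1.90 CPM (edgeR adjusted p = 0.000194). Among those not called were PDGFRA (38.8 ± 0.890 and 34.6 ± 0.701 CPM, adjusted p = 0.0711) and IL2RB (1.04 ± 0.572 and 1.63 ± 0.961 CPM). Of 18 ligand genes 6 were tested, 2 of which rose and 0 fell: IL11 and CLCF1, a ligand of the CNTF receptor (2.88 ± 1.34 to 5.64 ± 0.526 CPM, adjusted p = 0.032). CLCF1 was not called without untreated replicate 3 (0.0698), without lipoic acid replicate 1, 2 or 3 (0.0822, 0.0537 and 0.0947) or among the 4 libraries of even counts (0.179). CTF1 was not called (1.07 ± 0.283 and 1.27 ± 0.188 CPM). The rise of IL11 has the limit given above, as it passed the filter through the lipoic acid group alone.

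Of all 11 JAK kinases and STAT factors, 4 rose, 4 fell and 3 did not pass (median 0.03), where rises and falls were also nearly equal over all tested genes (24.2% and 23.3%). STAT5B, a main effector of KIT, EPOR and interleukin 3 receptors, had 37.8, 35.0 and 38.3 CPM without and 53.5, 50.4 and 55.4 CPM with lipoic acid, and rose 1.43-fold (edgeR adjusted p = 0.000347). JAK3, the kinase that pairs with IL2RG, fell 1.62-fold (log2 fold change -0.70, SE 0.09, adjusted p = 0.000248) from an untreated level of 47.1 ± 5.59 CPM. STAT3, the main effector of IL6ST, fell 1.31-fold from 47.8 ± 6.46 to 36.4 ± 2.32 CPM (adjusted p = 0.00927) and STAT6 1.22-fold from 193 ± 8.95 to 158 ± 8.03 CPM (0.00419). TYK2 was not called (adjusted p = 0.353). The 4 rises numbered 2, 2 and 1 without lipoic acid replicates 1, 2 and 3, and 2 after the GC and length correction.

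Of 18 feedback inhibitors, 2 rose, 3 fell and 13 did not pass (median -0.09), where 47.4% of all tested genes were called. CBLB, a ubiquitin ligase that limits receptor signalling, rose 1.54-fold from 45.7 ± 5.21 to 70.6 ± 1.74 CPM (edgeR adjusted p = 0.000316). PTPN2, a phosphatase of JAK and STAT proteins, fell 1.29-fold (0.00743), PIAS4 1.68-fold (0.00842) and SOCS5 1.23-fold (0.0248). The SOCS5 call was lost on leaving out lipoic acid replicate 1, 2 or 3 (0.0896, 0.0625 and 0.0836) and among the 4 libraries of even counts (0.139). SH2B3, the adaptor LNK that restrains KIT signalling, stood at 640 ± 10.2 and 612 ± 13.0 CPM and was not called (adjusted p = 0.293), nor was the ubiquitin ligase gene CBL (0.0612). Of 4 proteases of the cell surface and matrix, MMP9, which can release soluble stem cell factor, fell from 1.28 ± 0.352 to 0.468 ± 0.0901 CPM (adjusted p = 0.02) but was not called without untreated replicate 1 (0.0849) or lipoic acid replicates 1 (0.0744) or 3 (0.077), or with the replicate number as a block (0.0579, and 0.102 with both block and GC correction). ADAM10 and ADAM9 were not called.

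Adaptor, RAS and PI3 kinase genes carry the signal of KIT. Of 21 such genes 19 were tested, of which 10 rose, 3 fell and 6 did not pass (median 0.20), where 24.2% of all tested genes rose and 23.3% fell. The excess of rises depended on the processing: 5 rose and 3 fell after the GC and length correction, 5 rose and 5 fell with that correction and the replicate block, and 6 rose and 4 fell among the 4 libraries of even counts. SOS2, an activator of RAS, rose 1.43-fold from 57.4 ± 4.22 to 81.9 ± 5.11 CPM (edgeR adjusted p = 0.000549) and CRKL, an adaptor, 1.29-fold from 140 ± 7.03 to 181 ± 9.66 CPM (0.0012). PIK3R3, a regulatory subunit of PI3 kinase, fell 2.15-fold from 40.1 ± 0.379 to 18.6 ± 3.74 CPM (0.000115), and GRB10, an adaptor that limits growth factor signalling, 1.28-fold (0.000277). NRAS and GRB2 were not called (0.729 and 0.453).

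Among 14 tested genes known to respond to STAT factors there were 3 rises and 3 falls, and 8 were not called (median -0.16), a share called close to the 47.4% over all tested genes. PIM3, a survival kinase, had 46.7, 39.3 and 42.0 CPM without and 88.0, 93.7 and 88.3 CPM with lipoic acid and rose 2.11-fold (edgeR adjusted p = 6.01e-06). BCL2, which blocks apoptosis, rose 2.75-fold from 3.05 ± 0.682 to 8.42 ± 1.17 CPM (0.000479). ID1, an inhibitor of helix-loop-helix factors, fell 1.75-fold from 119 ± 8.63 to 68.0 ± 3.28 CPM (2.59e-05) and CCND2, a D-type cyclin, 1.48-fold (0.000144). SOCS3, the classic target downstream of IL6ST, was not called (104 ± 10.4 and 96.8 ± 2.04 CPM, 0.286), nor was BCL2L1 (0.212). After the GC and length correction 5 of these genes rose and 4 fell.

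**Figure D4:**
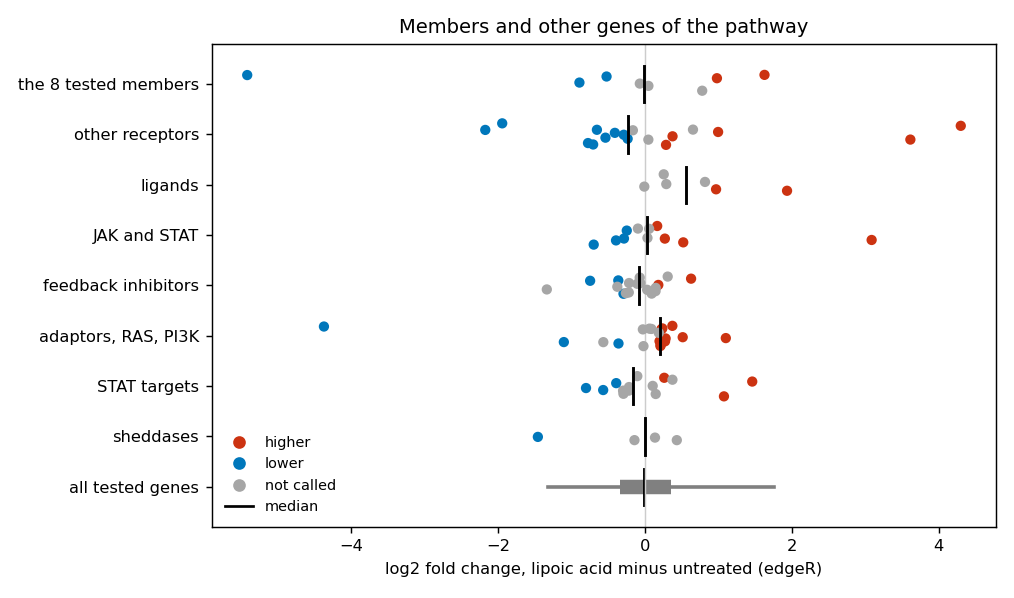
Fitted log2 fold changes (x axis, lipoic acid minus untreated) of the 8 tested members and of the tested genes of each pathway list (rows), coloured by call, with black bars at medians; the grey bars at the bottom span the 5th to 95th and 25th to 75th percentiles of all tested genes (-1.32 to 1.75 and -0.34 to 0.35). KITLG is the rightmost member at 1.63 and IL3RA the leftmost at -5.42.

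Across the 6 libraries, the profiles nearest to that of KITLG, by Euclidean distance between log2(CPM + 0.5) values centred on each gene's mean, were those of MTHFD2 (0.129), LUZP2 (0.136) and SLC38A1 (0.161). LUZP2 was almost absent without lipoic acid, at 0.0222 ± 0.0384 and 1.02 ± 0.152 CPM, with a fitted log2 fold change of 5.33. The added 0.5 shrinks so low a gene's difference in this distance, so LUZP2 did not change by the same fold as KITLG. The nearest to KIT were TAF1 (0.104), LAMA1 (0.106) and ZNF721 (0.119). The 6 libraries include both groups, so these distances, given as a description, also hold the difference between them.

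Markers of other cell types were read in the same libraries. Of 14 blood and myeloid markers 6 had no count in any library (PTPRC, SPN, ITGAM, SPI1, MPO and AIF1). Among the 6 that were tested, 1 rose and 2 fell. The summed level of the 14 was 324 to 348 CPM in untreated and 271 to 298 CPM with lipoic acid, most of it LAPTM5. All 6 mast cell markers were at 0. POU5F1 and SOX2 were at 0 among 7 pluripotency markers, whose sum was 79.4 to 83.9 and 89.6 to 91.3 CPM, led by DPPA4, with 2 of 3 tested called higher (LIN28A and ZFP42). Erythroid markers summed to 0.123 to 0.665 and 1.11 to 1.58 CPM, with only 1 of 12 tested, which rose. That gene, GYPB, passed the low-count filter through the lipoic acid group alone, so a rise was the only call it could get. The erythroid sum rests on few counts, and the 3 erythroid markers with the highest CPM went both ways. Over the untreated and the lipoic acid libraries GYPB had 0 and 58 counts, ALAS2 0 and 30, and HBG2 23 and 0. Megakaryocytic markers summed to 3.26 to 4.46 and 7.32 to 9.43 CPM (3 of 5 tested rose and 1 fell). Lymphoid markers, mostly RAG1, summed to 3.06 to 3.92 and 12.1 to 14.4 CPM (the 1 tested rose). Endoderm and hepatic markers summed to 67.0 to 75.1 and 171 to 241 CPM, and 7 of 9 tested rose. Of the others, SOX17 fell, from 39.0 ± 1.51 to 16.8 ± 1.77 CPM. Epithelial markers summed to 226 to 249 and 409 to 474 CPM (5 of 6 rose). Over all tested genes 24.2% rose and 23.3% fell. Mesenchymal markers, led by COL3A1 and COL1A2, summed to 1540 to 2178 and 1245 to 1764 CPM (1 of 10 rose and 4 fell). The summed levels of endoderm, epithelial, pluripotency, megakaryocytic, erythroid and lymphoid markers were thus higher in the libraries in which KITLG and KIT were higher, and the part of these cell types in the results was not tested.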

How the data were processed

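Raw counts per gene symbol were used as deposited by the authors. The submitters' processing notes name HISAT2, featureCounts, DESeq2 and hg38, without versions. Annotation, strand setting and handling of multiply aligned reads are not given in the sources used here. The 6 columns were matched to samples by title, 0 were left unused and 0 rows named no gene.

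Counts were tested in R 4.3.3 with edgeR 4.0.16 (filterByExpr, TMM, quasi-likelihood F test, group as the only term). Some listed genes, among them IL11 and GYPB, passed the filter through the lipoic acid group alone, so they could only be called higher. The SE is the log2 fold change divided by the square root of F. The fit was tested on simulated data of 13610 genes, in which 98% of 2-fold and 54% of 1.5-fold changes were called. The simulation gave all genes 1 spread (coefficient of variation 0.137) and changed 100 genes by each fold, all above 1 CPM. In the data 47.4% of tested genes were called and spreads differed by gene, so these shares do not carry over to single genes here. DESeq2 1.42.0 and limma 3.58.1 were alternatives, beside other scalings and filters, leaving out libraries, halving even counts and removing a trend with GC content and exonic length. Positions and lengths (union of exons) came from GENCODE 29 on GRCh38, in which 99.36% of symbols were found. Counting floors and intervals cover counting error alone, as no molecular barcodes are mentioned.

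The members, gene lists and settings were chosen with earlier results of these data known. From each pathway list, up to 4 called genes with the lowest p and up to 2 uncalled ones with the highest CPM were named, from each marker list up to 3 with the highest CPM, and for KIT and KITLG the 3 nearest profiles. Partner chains, kinases and ligands of members outside this rule (OSMR, CSF2RA, CRLF2, IL5RA, IL3, CSF2, IL5, IL6, FLT3LG, JAK2, IL11RA, PDGFRB, LEPR), CD34, CDH5 and RUNX1, genes of the pseudoautosomal region, and markers without counts were chosen after their values were seen. Some genes of the lists are not reported here.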

Additional observations from a re-analysis of the deposited data

How the results depend on the processing

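KITLG, KIT, CSF2RB and IL7R held their calls in all 19 other fits, with log2 fold changes of 1.48 to 1.69, 0.84 to 1.07, -0.97 to -0.84 and -0.66 to -0.39. IL3RA (-5.91 to -2.80 over 18 fits) was not called with robust moderation (-5.42, adjusted p = 0.0592). IL6ST was called lower after the GC and length correction (-0.22, adjusted p = 0.0113) and with that and the replicate block (-0.22, 0.0183). The log2 difference in the KITLG to KIT ratio was 0.56 to 0.81 over 8 other settings. The exact permutation p was 0.1 on leaving out any 1 library and 0.25 with the replicate block. Each is the smallest that its setting allows, so these p-values do not rank the settings. Replicate numbers gave correlations of deviations of 0.1, 0.085 and 0.098 between same-numbered libraries, each the highest for its library. Pairs with unlike numbers gave -0.076 to -0.003. Whether same-numbered libraries were prepared together is not stated, and the main fit and the main permutation test used no pairing. The replicate block gave KITLG 1.63, KIT 0.98, CSF2RB -0.89, IL7R -0.52 and IL3RA -4.59, all called, with 2 members higher and 3 lower as before.

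Small counts in the pathway lists moved, and the cause was not tested beyond the changed filter or number of libraries. Ligands higher numbered 4 without a filter and in DESeq2, 1 under the 1 CPM filter and 0 among the even-count libraries. Feedback inhibitors higher numbered 1 without a filter, among the even-count libraries and after the GC and length correction with or without the replicate block, and 4 at an adjusted p under 0.1; lower, 5 in limma voom. Other receptors higher numbered 3 under the 1 CPM filter. Proteases lower numbered 0 under that filter, 2 in voom and 2 after that correction, and 1 was higher among the even-count libraries. After the correction, with or without the block, JAK and STAT genes higher numbered 2, adaptors higher 5 and STAT targets higher 5; adaptors lower numbered 5 with both. Adaptors higher numbered 6 among the even-count libraries. Leaving out single libraries gave 1 to 4 ligands higher, 0 to 1 lower, 1 to 2 feedback inhibitors higher, 2 to 5 lower, 1 to 4 JAK and STAT genes higher, 3 to 5 STAT targets higher and 0 to 2 proteases lower. Of the 9 members, 5 to 9 kept their rank in untreated level per length, 5 without untreated replicate 2, in which IL3RA was high. Genes below about 1 CPM (FLT3, CSF1R, IL2RG, CSF2RA) are limited by depth.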
